A study of Rattus norvegicus with 6 samples.

Results

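Astrocytes, the star-shaped glia of the brain, take up the glutamate that synapses release, buffer potassium and water around neurons, and are joined into networks by gap junctions. The 10 genes described here encode proteins by which astrocytes are recognised or through which they clear glutamate, and they were chosen by gene symbol from the deposited count table. All 10 were among the 22601 genes of that table, and all 10 passed the filter on low counts that left 14588 genes to be tested. In the glutamate-glutamine cycle, transporters in the astrocyte membrane carry glutamate into the cell, glutamine synthetase turns it into glutamine, and glutamine is passed back to neurons.

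Tissue was the ventral hippocampus of males of the outbred Sprague Dawley strain, which were aged (22 months, 3 rats) or adult (4 months, 3 rats) and had been through the Morris water maze, a test of spatial memory. Each of the 6 libraries was made from a different rat, drawn at random from a larger group of its age. No other treatment or genotype is given in the labels, and the hippocampus was sequenced as whole tissue, without sorting cells. The comparison asked how transcript levels in aged rats differed from those in adult rats.

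Library totals lay between 12476758 and 15689921 counts. All 7 markers of hippocampal neuron fields were above 0 counts in every library, and they summed to between 422 and 568 CPM (counts relative to the library total, scaled by TMM) in aged rats and between 393 and 850 CPM in adult rats. Choroid plexus markers stood apart in adult replicate 1, where 6 genes summed to 2143 CPM, against 12.2 to 76.5 CPM in aged rats and 27.5 and 53.9 CPM in the other adult rats. Mature oligodendrocyte markers summed to between 6840 and 9152 CPM in aged rats and between 11620.1 and 17506 CPM in adult rats. The 6 meningeal fibroblast markers also summed to less in every aged rat (74.8 to 146 CPM) than in every adult rat (175 to 316 CPM). Their median log2 fold change was -1.15, against -0.79 for the 8 mature oligodendrocyte markers. By edgeR, 4 of these 6 and 7 of these 8 were lower in aged rats at an unadjusted p under 0.05. Over all genes tested the share was 2.27%. In both lists 0 passed the adjusted threshold. Liver markers summed to 23.6, 250.3 and 196.8 CPM in aged replicates 1 to 3 and to 20.3, 517 and 502 CPM in adult replicates 1 to 3.

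None of the 10 astrocyte genes passed the test between the ages, set at an adjusted p under 0.05. Values of p came from edgeR's quasi-likelihood test and were adjusted by Benjamini-Hochberg over all 14588 genes, of which 0% passed and 3.45% (503) had an unadjusted p under 0.05. The smallest adjusted p over all genes was 0.510, and each of the 10 had an adjusted p of 1.00 when rounded. limma-voom also called 0 of all genes, and DESeq2 called 31, none of them among the 10. The transcription factor gene Sox9 was the 1 of 10 members that was lower in every aged rat than in every adult rat, with a log2 fold change of -0.50. Over all genes tested, the groups did not overlap in 7.56%, and 4.43% were lower in every aged rat. Within libraries, the ratio of the transporter genes Slc1a2 and Slc1a3 was lower in every aged rat than in every adult rat, while for each gene alone the groups overlapped. With 3 rats against 3 an exact permutation test cannot go below p = 0.1. This ratio was among 4 compared. The groups nearly touched for the ratios of Gja1 to Gjb6 and of Gfap to Aldh1l1, but did not overlap in any of the 4. The same held for 24.4% of all 45 ratios between members and for 6.88% of ratios between all pairs of genes that averaged 10 CPM or more.

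The start regions of 3 members, Slc1a3, Glul and Slc1a2, are printed, and they were chosen after the values were seen. Slc1a3 and Glul had the most alike profiles of the members over the libraries. The ratio of Slc1a2 to each of them was lower in every aged rat than in every adult rat. RefSeq promoter sequences of the GRCr8 build, 250 bases before to 50 bases after the annotated start, were matched by symbol for 9 of the 10 members. Capitals mark ACAAAG, a core of sites bound by SOX factors, and TTGGCA, which holds the core of nuclear factor I sites, each searched on both strands.
Slc1a3, GRCr8 chr2:59557759-59558058, minus strand: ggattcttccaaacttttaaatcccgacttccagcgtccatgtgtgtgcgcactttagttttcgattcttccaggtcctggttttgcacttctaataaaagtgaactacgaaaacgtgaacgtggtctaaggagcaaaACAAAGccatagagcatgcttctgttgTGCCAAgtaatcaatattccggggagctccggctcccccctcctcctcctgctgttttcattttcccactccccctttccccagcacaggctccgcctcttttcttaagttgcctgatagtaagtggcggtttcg
Glul, GRCr8 chr13:68519250-68519549, plus strand: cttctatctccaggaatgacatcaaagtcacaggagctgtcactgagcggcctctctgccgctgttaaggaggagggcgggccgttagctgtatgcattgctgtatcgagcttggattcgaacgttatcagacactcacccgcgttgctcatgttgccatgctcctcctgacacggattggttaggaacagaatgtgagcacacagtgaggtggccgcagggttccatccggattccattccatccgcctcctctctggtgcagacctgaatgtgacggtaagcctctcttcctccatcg
Slc1a2, GRCr8 chr3:109459859-109460158, plus strand: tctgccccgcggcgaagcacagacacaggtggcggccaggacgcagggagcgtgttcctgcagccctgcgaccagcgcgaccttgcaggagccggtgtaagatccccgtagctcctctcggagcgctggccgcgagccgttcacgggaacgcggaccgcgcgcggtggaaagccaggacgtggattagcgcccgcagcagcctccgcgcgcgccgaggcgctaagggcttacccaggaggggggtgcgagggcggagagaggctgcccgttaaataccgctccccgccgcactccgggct
The letters ACAAAG were found in 1 of the 9 windows, that of Slc1a3, and in 13.2% of the 10729 windows of tested genes. TTGGCA was found in 2 of the 9, Slc1a3 and S100b, and in 11.2% of the windows of tested genes, and in Slc1a3 the matches began at bases 139 and 166 of the window without overlapping. The Slc1a2 window was 71.0% G and C, against 48.3% for Slc1a3, 54.7% for Glul and a median of 60.7% over tested genes. A match of letters is a description of the sequence and was not set against binding data.

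Per length, the order of the members was nearly the same in all 6 libraries. Levels between genes are given as FPKM, levels corrected for gene length and library total, as the authors deposited them. S100b, which encodes a calcium-binding protein that astrocytes secrete and that oligodendrocyte lineage cells also make, was highest in every library at 1454 ± 188 FPKM in aged rats and 1398 ± 221 FPKM in adult rats (SD, n = 3 each). Its mean ranked 12 among all genes tested. Glul followed at 542 ± 30.6 FPKM in aged rats and 482 ± 143 FPKM in adult rats, and Gfap came next at 306 ± 76.9 FPKM in aged rats and 311 ± 17.2 FPKM in adult rats.

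The glutamate transporters stood far apart in level. Slc1a3 averaged 152 ± 4.96 FPKM in aged rats and 139 ± 49.8 FPKM in adult rats. Slc1a2, whose protein is known as the main glutamate transporter of the forebrain, averaged 26.5 ± 3.04 FPKM in aged rats and 31.96 ± 9.42 FPKM in adult rats. Slc1a2 levels were thus below those of Slc1a3 in all 6 libraries. The gene length behind the deposited FPKM was 1685 bases for Slc1a2 and 3960 bases for Slc1a3, and the part that the choice of transcript plays in this order was not tested.

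In the middle of the order stood the gap junction gene Gja1 and the water channel gene Aqp4. Gja1 averaged 113 ± 12.9 FPKM in aged rats and 130 ± 25.7 FPKM in adult rats. Aqp4 averaged 87.5 ± 4.44 FPKM in aged rats and 96.1 ± 21.1 FPKM in adult rats. The lowest members were Gjb6, a further gap junction gene, with a mean over all libraries of 15.7 FPKM, Aldh1l1 with 10.2 FPKM and Sox9 with 8.89 FPKM. Neighbours changed places only for Slc1a3 over Gja1 and for Aldh1l1 over Sox9, each higher in 5 of 6 libraries, and for both pairs the exception was adult replicate 1.

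**Figure D1:**
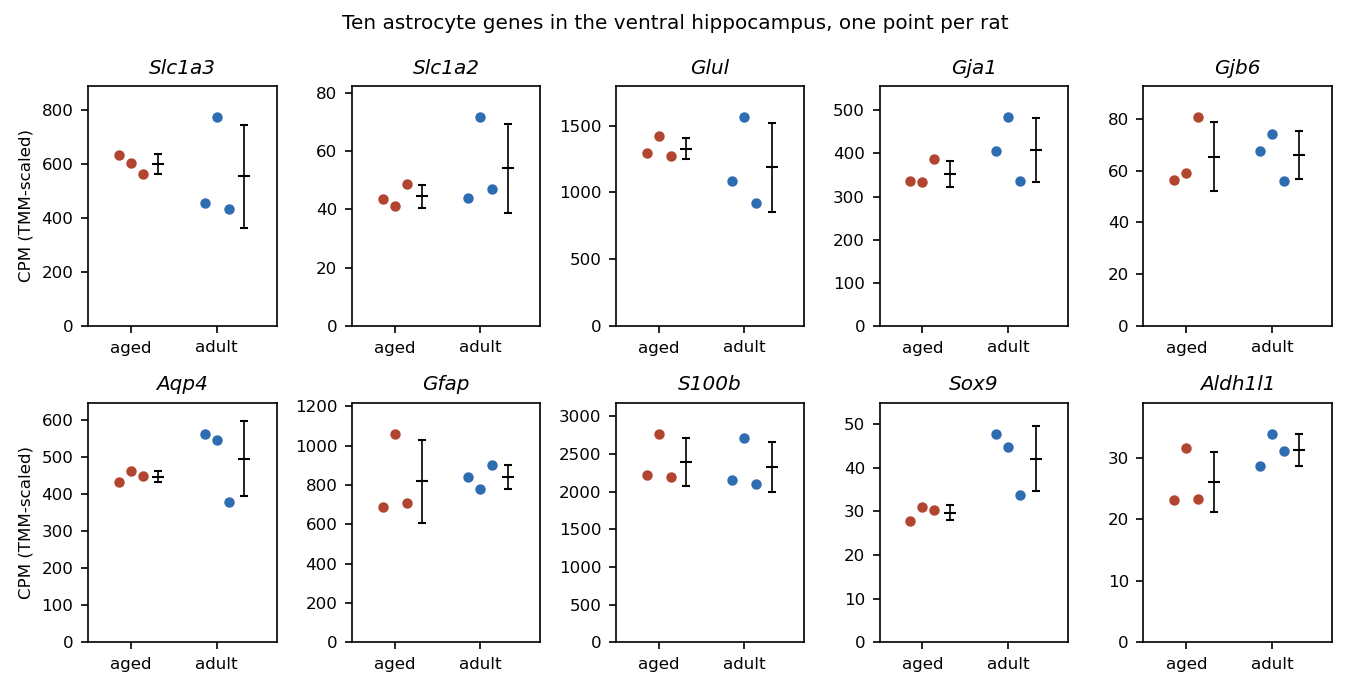
Level of each of the 10 genes in CPM, on axes that start at 0, with 1 point per rat in replicate order from left to right, aged on the left and adult on the right, and mean ± SD as black bars. Sox9 is the gene whose aged points (27.8 to 31.0 CPM) all lie below its adult points (33.7 to 47.7 CPM).

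For the genes of glutamate uptake, the adult rats spanned a wider range than the aged rats and enclosed most of their values. Slc1a3 encodes the transporter GLAST, which is enriched in astrocytes and radial glia. It stood at 634, 603 and 561 CPM in aged replicates 1 to 3, against 455, 772 and 434 CPM in adult replicates 1 to 3. All 3 aged values lay inside the adult range, with adult replicate 2 far above the other adult rats. The log2 fold change was 0.11 ± 0.22 (SE), with a 95% interval from a fold of 0.758 to one of 1.55 and an adjusted p of 1.00 by edgeR.

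Slc1a2 encodes the transporter GLT-1. It stood at 43.6, 41.0 and 48.7 CPM in aged rats, against 43.8, 71.6 and 46.9 CPM in adult rats. Adult replicate 2 was again the highest and the groups overlapped. The log2 fold change was -0.28 ± 0.20 (SE), with a 95% interval from a fold of 0.601 to one of 1.12 and an adjusted p of 1.00 by edgeR. Without adult replicate 2 the log2 fold change of Slc1a2 was -0.029 and that of Slc1a3 was 0.43 (adjusted p = 0.923 by edgeR for Slc1a3).

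Glul encodes glutamine synthetase, the enzyme that makes glutamine from the glutamate taken up. It stood at 1295, 1421 and 1273 CPM in aged rats, against 1089, 1564 and 920.1 CPM in adult rats. The aged rats lay close together and inside the adult range. The log2 fold change was 0.16 ± 0.20 (SE), with a 95% interval from a fold of 0.812 to one of 1.53 and an adjusted p of 1.00 by edgeR, and it was 0.40 without adult replicate 2 and 0.011 without adult replicate 3. In the GRCr8 annotation Glul overlaps Rgsl1, Rgsl2h and 2 further genes not used here. Rgsl1 had at most 0.482 CPM in any library and Rgsl2h had 0 counts.

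The gap junction gene Gja1 and the water channel gene Aqp4 gave means slightly lower in aged rats, within the spread. The means of Gjb6 were nearly equal, at 65.3 CPM in aged rats and 66.0 CPM in adult rats. Gja1 encodes connexin 43, the main connexin of astrocytes, and stood at 337, 334 and 388 CPM in aged rats, against 406, 484 and 336 CPM in adult rats. Gjb6 encodes connexin 30, its partner in mature astrocytes, and stood at 56.4, 59.0 and 80.6 CPM in aged rats, against 67.7, 74.3 and 56.0 CPM in adult rats. Aged replicate 3 was the highest library for Gjb6 and the highest aged library for Gja1, and both genes were lowest among adults in replicate 3. The log2 fold changes were -0.21 ± 0.16 for Gja1 and -0.014 ± 0.17 for Gjb6 (SE). For Gja1 it was -0.072 without adult replicate 2 and -0.33 without adult replicate 3.

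Aqp4 encodes the water channel of astrocyte endfeet, which wrap blood vessels. It stood at 432, 461 and 448 CPM in aged rats, against 562, 545 and 379 CPM in adult rats. The aged rats lay between adult replicate 3 and the other adult rats. Their coefficient of variation was 3.30%, against 20.4% in adult rats, and the log2 fold change was -0.15 ± 0.17 (SE). It was -0.037 without adult replicate 1 and -0.30 without adult replicate 3.

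Gfap showed the reverse pattern of spread. It encodes the intermediate filament of the astrocyte cytoskeleton, whose protein is widely used as a mark of reactive astrocytes. It stood at 686, 1059.6 and 707 CPM in aged rats, against 841, 780.2 and 903 CPM in adult rats. Aged replicate 2 was the highest of all 6 and the other aged rats were the lowest, so that the aged rats enclosed the adult rats. The log2 fold change was -0.041 ± 0.19 (SE), with a 95% interval from a fold of 0.721 to one of 1.31 and an adjusted p of 1.00 by edgeR, and it was -0.26 without aged replicate 2. Microglia markers, as a sum of 7 genes, stood at 261, 352 and 240 CPM in aged replicates 1 to 3. In adult replicates 1 to 3 they stood at 276, 288 and 209 CPM. Gfap and this sum were thus both highest in aged replicate 2. Among adult rats their order was reversed, with Gfap highest and the sum lowest in replicate 3. Any relation between the microglia markers and the Gfap value was not tested.

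S100b stood at 2227, 2768 and 2194 CPM in aged rats, against 2160.1, 2709.9 and 2107 CPM in adult rats. Replicate 2 was the highest library of each age and the rest lay within a narrow range. Its log2 fold change was 0.043 ± 0.16 (SE), while the mature oligodendrocyte markers summed above, whose cells can also hold S100b, were lower in every aged rat than in every adult rat. The part of oligodendrocytes in the S100b count was not tested. S100b overlaps Dip2a in the GRCr8 annotation, and Dip2a had 45.2 to 70.9 CPM.

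Sox9 encodes a transcription factor of astrocytes and neural stem cells that acts in the switch from neuron to glia production during development. It stood at 27.8, 31.0 and 30.2 CPM in aged rats, against 47.7, 44.7 and 33.7 CPM in adult rats. Every aged rat lay below every adult rat, and adult replicate 3 was close to the aged rats. The log2 fold change was -0.50 ± 0.16 (SE), with a 95% interval from a fold of 0.550 to one of 0.906, an unadjusted p of 0.0122 and an adjusted p of 1.00 by edgeR. In p it ranked 135 of the 14588 genes, and 2.27% of all genes tested were lower in aged rats at an unadjusted p under 0.05. Sox9 was the 1 of 10 members whose groups did not overlap, where 7.56% of all genes tested did not overlap, 4.43% with aged rats lower and 3.13% with aged rats higher. Without aged replicate 1 the log2 fold change of Sox9 was -0.44 with an unadjusted p of 0.0528 by edgeR. Without adult replicate 1, the library with choroid plexus RNA, it was -0.39 with an unadjusted p of 0.0608 by edgeR. Whether Sox9 transcripts from the choroid plexus or ependyma add to that library was not tested, and ependyma markers summed to 69.3 CPM there, against 13.2 to 45.3 CPM in aged rats and 16.6 CPM in each of the other adult rats. The mature oligodendrocyte and meningeal fibroblast sums given above were, like Sox9, lower in every aged rat than in every adult rat. The part of these cells in the Sox9 value was not tested.

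Aldh1l1 encodes a folate enzyme that is widely used as a pan-astrocyte marker. It stood at 23.2, 31.6 and 23.4 CPM in aged rats, against 28.8, 33.9 and 31.2 CPM in adult rats. Aged replicates 1 and 3 lay below all adult rats and aged replicate 2 lay among them. The log2 fold change was -0.27 ± 0.16 (SE), with an unadjusted p of 0.145 by edgeR, and it was -0.42 without aged replicate 2, -0.17 without aged replicate 1 and -0.19 without aged replicate 3.

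**Figure D2:**
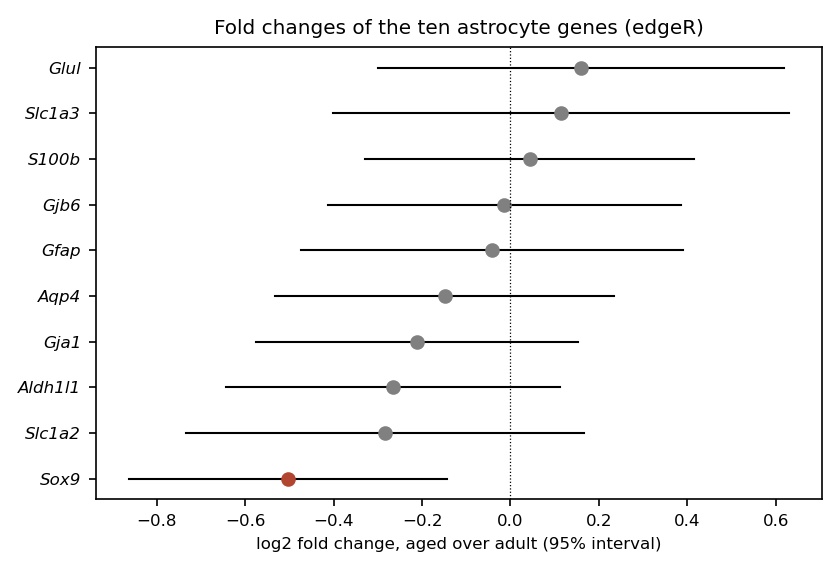
Log2 fold change of each gene, aged over adult, from edgeR, with the 95% interval as a line; the gene whose groups did not overlap is in red and the rest are in grey. Only the interval of Sox9 (-0.86 to -0.14) leaves out 0, and the other 9 intervals cross it.

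Taking the members as a set, 7 of 10 had a log2 fold change below 0, and their median was -0.095. Over all genes tested, 50.5% were below 0 and the median was -0.0022. In whole tissue, a difference in the number of astrocytes and one in RNA per astrocyte could not be told apart. The mean over the members of log2 CPM, centred on each gene, was 0.10 lower in aged rats than in adult rats (difference -0.10, SD between libraries of one age 0.17). Without adult replicate 2 that difference was 0.014.

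Most members were high or low in the same libraries. In adult replicate 2, 9 of 10 members were above their own mean and 5 were at their highest of all 6 libraries, while in adult replicate 3, 8 of 10 were below their mean and 5 were at their lowest. The mean deviation was -0.14, 0.030 and -0.047 log2 units in aged replicates 1 to 3, against 0.016, 0.28 and -0.15 in adult replicates 1 to 3. The 20 other astrocyte identity genes gave -0.083, 0.098 and -0.024 in aged rats, against -0.044, 0.25 and -0.20 in adult rats. Of these 20 genes, 18 were above their mean in adult replicate 2 and 16 below it in adult replicate 3, whereas over all genes at 1 CPM or more on average 50.1% were above and 48.1% below.

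Marker lists of some other cells also averaged above the gene means in adult replicate 2 and below them in adult replicate 3. The 5 oligodendrocyte precursor markers had a mean deviation of 0.27 in adult replicate 2, with all 5 above their mean, and -0.18 in adult replicate 3, with 4 below it. The 7 microglia markers had 0.17, with 4 above their mean, and -0.34, with 6 below it, in these libraries. Microglia markers were highest in aged replicate 2, at 0.41. Other lists differed from this pattern. Hippocampal field markers had a mean deviation of 0.66 in adult replicate 3 and 0.055 in adult replicate 2. The 5 endothelial genes tested had a mean deviation of 0.59 in adult replicate 2, where all 5 were at their highest, and 0.0032 in adult replicate 3. Neuron markers deviated by 0.011 and -0.0090 in the same libraries. What part the tissue taken from each rat plays in these differences was not tested.

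**Figure D3:**
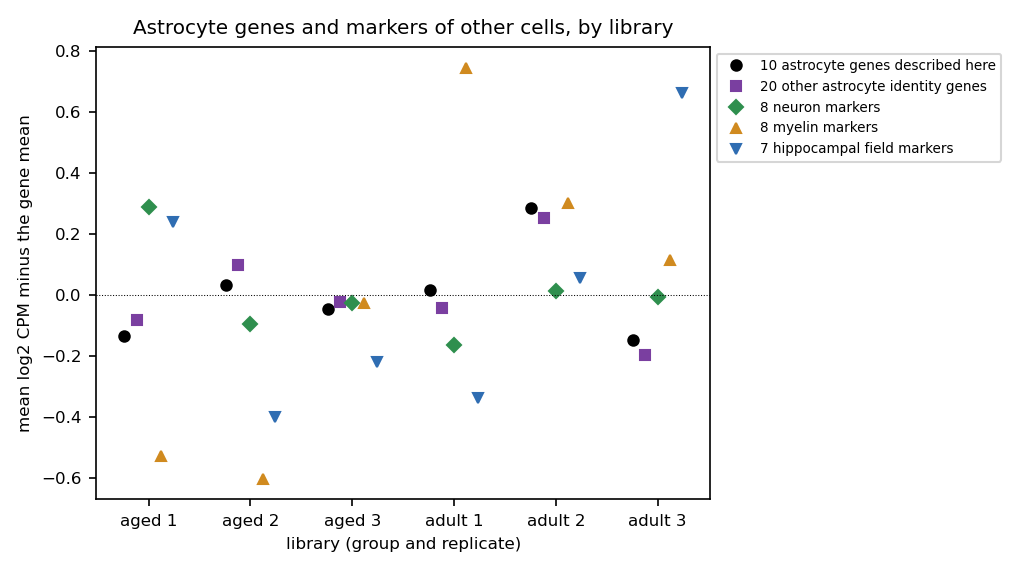
Mean deviation of log2 CPM from each gene's own mean, per library, for the 10 genes, 20 other astrocyte identity genes and 3 marker lists, with 1 point per list and library and aged libraries on the left. The astrocyte lists lie together in each library, highest in adult replicate 2 (0.28 and 0.25) and low in adult replicate 3 (-0.15 and -0.20), where hippocampal field markers reach 0.66.

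Spread within an age ranged from ordinary to wide for the members, compared with genes of like level. For 7 of 10 members the coefficient of variation was larger in adult than in aged rats, with a median of 8.67% in aged rats and 17.9% in adult rats. Among all genes that averaged 10 CPM or more, 48.1% had the larger coefficient in adult rats, and the medians were 12.4% in aged rats and 11.8% in adult rats. The SD of log2 CPM within an age was above the median of genes within a factor of 2 in CPM for all 10 members, from the 51.5th percentile for Aldh1l1 to the 89.7th for Slc1a3. Most members were high in adult replicate 2 and low in adult replicate 3, as given above, so their coefficients are not independent. The difference in spread between the ages was not tested.

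Some members ran together over the libraries. Likeness was measured as the root mean square difference of log2 CPM, centred on each gene's mean, over the 6 libraries, so a smaller value is a closer match. Slc1a3 and Glul were each other's nearest member at 0.096, followed by Aqp4 and Gja1 at 0.13. Slc1a3 and Sox9 were the most distant pair at 0.42. Gfap was nearest to Aldh1l1 (0.16) and was the farthest member from Aqp4, Slc1a2, Gja1 and Gjb6.

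Among 9697 other named genes that averaged 10 CPM or more, the nearest to Gja1 was Hepacam (0.024), which encodes an adhesion protein of astrocytes, followed by Ctnnd1 (0.040). Nearest to S100b were Med16 (0.033) and Aldoc (0.035), an aldolase of astrocytes, and nearest to Aldh1l1 were Ntsr2 (0.060), a neurotensin receptor of astrocytes, and Hsd11b1 (0.069). Glul was matched by Adcy5 (0.053) and the glutamine transporter gene Slc38a1 (0.056). Sox9 was matched by Olig2 (0.056), a factor of the oligodendrocyte lineage that some astrocytes also express, and Mcam (0.058). The nearest to Gfap were Dgcr6 (0.019) and Nr2f6 (0.030), to Aqp4 Rassf2 (0.048) and Pld1 (0.056), and to Gjb6 Mtmr10 (0.029) and Svil (0.047). Slc1a2 was matched by Flna (0.078) and Bcar3 (0.082), and Slc1a3 by Clec11a (0.071) and Tyro3 (0.073). The median difference from all these genes lay between 0.24 for S100b and 0.34 for Sox9. Each nearest gene was picked as the smallest of 9697 differences over 6 libraries, so a small value is likely for any gene. The value that chance alone would give was not computed, and these matches do not show a shared cell type.

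Ratios between members within a library do not depend on scaling, and 4 of them were compared between the ages. The FPKM ratio of Slc1a2 to Slc1a3 was 0.162, 0.160 and 0.204 in aged replicates 1 to 3, against 0.226, 0.218 and 0.254 in adult replicates 1 to 3. All 3 aged ratios lay below all adult ratios. On the log2 scale the mean was -2.52 ± 0.20 in aged rats and -2.11 ± 0.12 in adult rats (SD, n = 3 each), a difference of -0.42 with p = 0.1 by an exact two-sided permutation test. That is the smallest p this design allows, and adjusted over the 4 ratios compared it stayed at 0.1.

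The ratio of Glul to Slc1a2 was 20.3, 23.7 and 17.9 in aged rats, against 17.0, 15.0 and 13.4 in adult rats. It was higher in all 3 aged rats, with a difference of 0.45 on the log2 scale and p = 0.1 by the exact permutation test. This ratio shares Slc1a2 with the one before, and Glul and Slc1a3 ran together, so they are not separate results. The ratio of Gja1 to Gjb6 was 7.97, 7.57 and 6.41 in aged rats, against 7.999, 8.69 and 8.01 in adult rats, a difference of -0.18 on the log2 scale with exact permutation p = 0.1. Aged replicate 1 lay just under the lowest adult rat, and without aged replicate 3 the difference was -0.083.

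The ratio of Gfap to Aldh1l1 was 31.0, 35.0 and 31.6 in aged rats, against 30.6, 24.1 and 30.3 in adult rats. The groups did not overlap but nearly touched, with a difference of 0.21 on the log2 scale and exact permutation p = 0.1, and the difference was 0.094 without adult replicate 2. Over all 45 ratios between members, looked at after these 4, the groups did not overlap in 11 (24.4%), against 6.88% of the ratios between all pairs of genes that averaged 10 CPM or more. The 45 ratios are made of 10 genes and are not independent, and Sox9 entered 5 of the 11. Slc1a3 over Sox9 differed by 0.65 and Sox9 over Glul by -0.68 on the log2 scale.

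**Figure D4:**
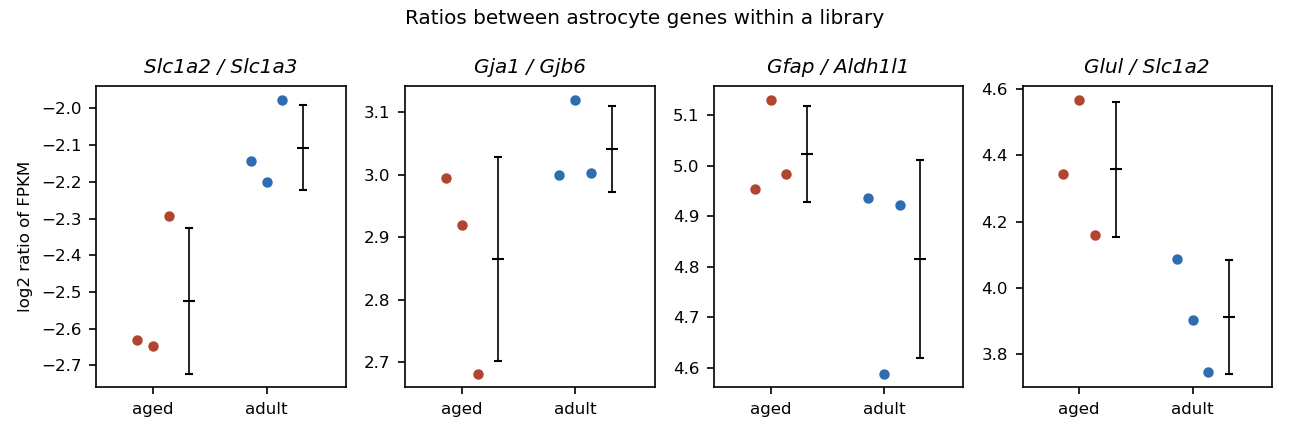
Log2 ratio of FPKM between members of 4 gene pairs in each library, with 1 point per rat in replicate order, aged left of adult, and mean ± SD as black bars; the axes do not start at 0. In each panel the aged and adult points do not overlap, with differences of -0.42, -0.18, 0.21 and 0.45 from left to right. They nearly touch for Gja1 over Gjb6 and for Gfap over Aldh1l1.

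Genes related to the members by function were looked up in 7 lists, and in each list 0 genes were called by edgeR at an adjusted p under 0.05. Of the 102 genes tested in these lists, 6 had an unadjusted p under 0.05, 1 higher and 5 lower in aged rats (5.88%, against 3.45% of all genes). The groups did not overlap in 7 of the 102 (6.86%, against 7.56% of all genes). Of 20 other astrocyte identity genes, 11 had a log2 fold change above 0 and 9 below, with a median of 0.026. Ntsr2 was the 1 gene of the list whose groups did not overlap, at 172, 209.6 and 162 CPM in aged rats, against 213, 246 and 214 CPM in adult rats. Plcd4, a phospholipase gene, averaged 26.1 ± 4.98 CPM in aged rats and 32.2 ± 4.62 CPM in adult rats.

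Of 21 genes that transport or convert glutamate and glutamine, 14 had a log2 fold change above 0 and 7 below, with a median of 0.080. Slc38a3 encodes a transporter by which astrocytes release glutamine, and it stood at 55.3, 67.7 and 55.6 CPM in aged rats, against 74.4, 82.6 and 68.0 CPM in adult rats. Its groups did not overlap, with a log2 fold change of -0.33 ± 0.13 (SE), an unadjusted p of 0.0350 and an adjusted p of 1.00 by edgeR. Slc7a11, the cystine-glutamate exchanger, averaged 57.9 ± 6.19 CPM in aged rats and 76.0 ± 16.8 CPM in adult rats. Slc1a1, the glutamate transporter of neurons, averaged 51.4 ± 18.8 CPM in aged rats and 45.8 ± 12.05 CPM in adult rats. Per length, Slc1a1 and Slc1a2 stood at similar levels, with means over the 6 libraries of 26.9 and 29.2 FPKM, where the Slc1a2 level rests on the length of 1685 bases and the transcript counted is not known here.

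Of 17 tested genes for potassium, water and junction partners, 5 had a log2 fold change above 0 and 12 below, with a median of -0.10. Aqp9, a channel for water and glycerol, was lower in all 3 aged rats, at 10.98, 9.08 and 10.1 CPM against 12.02, 15.4 and 13.5 CPM in adult rats (unadjusted p = 0.0440, adjusted p = 1.00 by edgeR). The chloride channel gene Clcn2 varied widely, at 39.0, 7.15 and 22.5 CPM in aged rats, against 4.17, 11.3 and 2.40 CPM in adult rats, and its groups overlapped. It had the smallest p of the list, with a log2 fold change of 1.94 ± 0.69 (SE), an unadjusted p of 0.0222 and an adjusted p of 1.00 by edgeR. Kcnj10, the main potassium channel gene of astrocytes, stood at 17.9, 6.02 and 13.1 CPM in aged rats, against 8.47, 31.5 and 8.06 CPM in adult rats. Adult replicate 2 was the highest library for Kcnj10, as for Slc1a2 and Slc1a3.

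The remaining lists gave medians near or below that of all genes. Of 6 genes for intermediate filament partners of Gfap, 2 were above 0 and 4 below (median -0.15), and Vim, the filament gene vimentin, averaged 71.8 ± 11.4 CPM in aged rats and 87.0 ± 23.1 CPM in adult rats. In the same list Des averaged 7.35 ± 4.16 CPM in aged rats and 12.8 ± 3.56 CPM in adult rats, and Nes 3.74 ± 1.24 CPM in aged rats and 5.19 ± 0.824 CPM in adult rats. Of 15 tested glial transcription factor genes, 4 were above 0 and 11 below (median -0.15). Sox2, a partner of Sox9 in neural stem cells, averaged 70.1 ± 11.7 CPM in aged rats and 79.7 ± 14.2 CPM in adult rats. Lhx2 averaged 66.2 ± 2.59 CPM in aged rats and 79.4 ± 12.2 CPM in adult rats, and Id3 averaged 43.6 ± 5.07 CPM in aged rats and 49.2 ± 3.28 CPM in adult rats.

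Of 15 folate enzyme genes, which act in the pathway of Aldh1l1, 7 were above 0 and 8 below (median -0.0099). Aldh1l2, the mitochondrial counterpart of Aldh1l1, was lower in all 3 aged rats at 0.599, 0.884 and 0.814 CPM, against 1.16, 1.83 and 1.87 CPM in adult rats (unadjusted p = 0.0279, adjusted p = 1.00 by edgeR). Mthfd1l was higher in all 3 aged rats at 31.5, 28.8 and 30.5 CPM, against 21.8, 28.2 and 25.4 CPM in adult rats (unadjusted p = 0.0950, adjusted p = 1.00 by edgeR). Of 8 genes of the S100 family and its receptor, 2 were above 0 and 6 below (median -0.20). S100a11 averaged 2.67 ± 0.245 CPM in aged rats and 4.58 ± 1.08 CPM in adult rats, and S100a4 averaged 6.23 ± 1.68 CPM in aged rats and 10.5 ± 3.51 CPM in adult rats.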

How the data were processed

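Per the file headers and values, the authors deposited raw read counts per gene symbol, with a column for each library, and FPKM values made from them. Each deposited FPKM was found to equal the count over 1 length per gene and over the library's total, to within 0.000719% over values with at least 10 counts. Reads were mapped to Rnor_6.0, per the submitters' processing notes, and neither aligner, counter, annotation nor strandedness is given in the sources used here. The members and lists were chosen with earlier results of these data known.

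Counts were filtered with filterByExpr, scaled by TMM and tested, aged minus adult with no covariate, with edgeR 4.0.16 in R 4.3.3 (quasi-likelihood F test, two-sided, Benjamini-Hochberg over 14588 genes, threshold 0.05). Standard errors came from the F statistic, and intervals are 95%. Exact two-sided permutation tests compared the ratios (scipy 1.17.1). The scripts were tested on simulated counts. Alternatives were RLE scaling, no filter, DESeq2 1.42.0, limma-voom and limma 3.58.1 on log2(FPKM + 1) and log2(FPKM + 0.1), the replicate number as a block, and leaving out each library. A block for replicate 1 of both ages, the libraries with low liver transcripts, was added after seeing the data. CPM were scaled by TMM, and 0.5 CPM was added before logarithms in list profiles and likeness. In each related list every called gene or, with none, the 2 with the smallest p at a mean of at least 1 CPM were named, plus Kcnj10, Slc1a1, Vim and Sox2. Library totals of at least 12476758 counts leave counting error of the 10 members below the spread of most groups of 3 rats, and p-values rest on these 6 animals.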

Additional observations from a re-analysis of the deposited data

How the results depend on the processing

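Under every alternative run, 0 of the 10 members passed the adjusted threshold, and Sox9, Aldh1l1, Slc1a2, Aqp4 and Gja1 stayed below 0 and Glul above 0. Leaving out each library moved these from -0.63 to -0.39 for Sox9, -0.42 to -0.17 for Aldh1l1, -0.40 to -0.029 for Slc1a2, -0.30 to -0.037 for Aqp4, -0.33 to -0.072 for Gja1 and 0.011 to 0.40 for Glul. Over all genes the count called was 0 with edgeR and became 31 with DESeq2 and 2 with log2(FPKM + 1); leaving out each library gave 0 to 1. Genes at an unadjusted p under 0.05 numbered 503 and ranged from 405 to 773 when a library was left out, the highest without adult replicate 2.

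Log2 fold changes near 0 turned with single libraries, and the cause was not tested. Gfap (-0.041) was 0.087 without aged replicate 1, 0.053 without aged replicate 3 and 0.021 without adult replicate 3, and ranged from -0.26 to 0.087. Gjb6 (-0.014) was 0.10, 0.064, 0.017 and 0.080 without aged replicate 1, aged replicate 2, adult replicate 1 and adult replicate 2, and ranged from -0.19 to 0.10. S100b (0.043) was -0.066 without aged replicate 2 and -0.015 without adult replicate 3, and ranged from -0.066 to 0.17. Slc1a3 (0.11) was -0.027 without adult replicate 3 and ranged from -0.027 to 0.43.

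With a library left out, the mean member difference ranged from -0.20 to 0.014, Slc1a2 over Slc1a3 from -0.53 to -0.35, Gja1 over Gjb6 from -0.24 to -0.083, Gfap over Aldh1l1 from 0.094 to 0.27 and Glul over Slc1a2 from 0.34 to 0.54. Each ratio then had an exact permutation p of 0.2, the smallest p this test can give with a library left out. Groups that do not overlap stay so when a library is left out, so this p was fixed in advance. Replicate numbers were not taken as pairs of rats in the main fit. Deviations of same-numbered libraries correlated at 0.10, -0.0067 and 0.12 across genes, against -0.17 to 0.093 for libraries of unlike number. Whether libraries of the same number share a step of handling was not tested. As a replicate block the numbers gave 0 genes called, 468 genes at an unadjusted p under 0.05 and a Sox9 log2 fold change of -0.49. With 3 rats a group, fold changes inside the printed intervals were not resolved.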
